A study of Rattus norvegicus with 4 samples.

Results

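Glycolytic enzyme genes were followed in the colon mucosa of F344 rats with dextran sodium sulphate (DSS) colitis, with and without resveratrol beforehand. The set holds 10 genes of the 15544 named genes on the array: the hexokinases Hk1 and Hk2, the phosphofructokinases Pfkl and Pfkp, Aldoa, Gapdh, Pgk1, Eno1, Ldha and Pdk4. They were chosen as a pathway, by gene name, with earlier results of these data known. They had 13 of the 41012 probes on the array, and 11 of these probes, for 8 of the 10 genes, could be tested.

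The resveratrol plus DSS rats, 8 animals of the inbred F344 strain, received the plant polyphenol resveratrol in their feed for 20 days, at a daily dose of 1 mg per kg, and then drank 5% DSS for 5 days. The control rats, of the same strain and likewise 8 in number, ate standard chow and received the same DSS, so colitis was induced in both groups and no rat without DSS was measured here. Each of 4 two-colour arrays set RNA pooled from a different pair of resveratrol plus DSS rats, labelled with Cy5, against a DSS control pool, labelled with Cy3. Replicates 1 and 2 lay on slide 1 and replicates 3 and 4 on slide 2. The sources used here do not say how many control rats the pool held or whether it was the same pool each time, and no dye was swapped. The pool was treated as 1 control sample. On that reading a ratio carries the spread between pairs of treated rats but not that between control rats. Ages are not given in the labels.

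Glycolysis converts glucose to pyruvate in the cytosol. Hexokinases trap glucose as glucose 6-phosphate, phosphofructokinases make the committed step, and aldolase splits the sugar into trioses, which glyceraldehyde 3-phosphate dehydrogenase, phosphoglycerate kinase and enolase carry towards pyruvate. Lactate dehydrogenase reduces pyruvate to lactate, and pyruvate dehydrogenase kinases such as Pdk4 hold pyruvate back from the mitochondria. The differentiated colonic epithelium draws much of its energy from butyrate, while activated neutrophils and macrophages rely strongly on glycolysis.

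The probes were 60 bases long, and the sequences below, given 5′ to 3′ as the array files list them, are those behind the results that differed most between genes and arrays. The dimmer of the 2 Hk1 probes and the Hk2 probe lie on corresponding stretches of these paralogous transcripts. Over the 48 bases in which they overlap, 32 bases (66.7%), in capitals, were identical. For Pfkl the 30 bases up to and including the stop codon, in capitals, are shown. Capitals in the Gapdh sequence mark the 6 letters ACCTCA at its 3′ end. The Pfkp and Eno1 sequences are shown without capitals.
Hk1: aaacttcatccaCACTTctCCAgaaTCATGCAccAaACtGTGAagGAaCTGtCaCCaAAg
Hk2: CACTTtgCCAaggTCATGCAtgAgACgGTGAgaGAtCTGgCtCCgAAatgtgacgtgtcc
Pfkl: cgcaccttgagcatagacaagggtttcTGA
Pfkp: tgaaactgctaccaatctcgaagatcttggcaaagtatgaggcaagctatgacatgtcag
Gapdh: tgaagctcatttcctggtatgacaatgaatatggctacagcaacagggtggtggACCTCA
Eno1: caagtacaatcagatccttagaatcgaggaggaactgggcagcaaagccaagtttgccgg

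On the rn3 build, which the file headers name, the Hk2 probe lies within chr4:117170976-117172483 on the minus strand. This interval spans 1508 bases for a 60-base probe, as for a probe that crosses an intron. The Pfkl probe lies at chr20:11032376-11032435 and the Pfkp probe at chr17:74833468-74833527, both on the plus strand. The Gapdh probe shown lies within chr4:161527376-161527545 and the other, brighter Gapdh probe at chr4:161527591-161527650, both on the minus strand. The Eno1 probe shown, the brighter one, lies within chr5:167414958-167415368, and the dimmer one at chr5:167415552-167415612, both on the plus strand. The single probes for Aldoa (chr1:186121943-186122002, minus strand), Pgk1 (chrX:94410216-94410275, plus strand), Ldha (chr1:97485785-97485844, plus strand) and Pdk4 (within chr4:30283045-30284933, minus strand) complete the set, and the files list no position for the Hk1 probes.

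The comparison asked how transcript levels of these enzymes differed in DSS colitis with resveratrol pretreatment. Hk2 and Pfkl, which act early in the pathway, were higher with resveratrol on every array, by about 1.5 and 1.7 times. The later enzymes Gapdh, Pgk1, Eno1 and Ldha were higher on both arrays of slide 1 and mixed on slide 2, and their means did not pass the test. Hk1 and Pfkp did not pass either, and Aldoa and Pdk4 could not be tested. Changes are given as log2 ratios of resveratrol plus DSS over the DSS control pool, with the moderated standard error of limma's fit after ±, and p-values are two-sided and adjusted by Benjamini-Hochberg over the 18869 probes tested.

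In numbers, 2 of the 11 tested probes were higher and 0 were lower at an adjusted p of 0.05. Of all tested probes 47.1% were called, 24.4% higher and 22.7% lower. By gene, 2 of 8 were higher and 0 were lower, against 25.7% of all genes higher and 19.6% lower. The share of higher genes was thus close to the background, while the share called in either direction was below it. The median log2 ratio of the 8 genes was 0.35, against 0.02 for all 9433 genes tested, and 7 of the 8 ratios lay above 0. Of the 10 tested probes with a value on all 4 arrays, 3 (Hk2, Pfkl and Pfkp) were above 0 on each of them, a pattern that 37.7% of all such probes had. The plot of the ratios by array shows the arrays close together for Hk2 and Pfkl and spread by slide for the later enzymes.

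**Figure D1:**
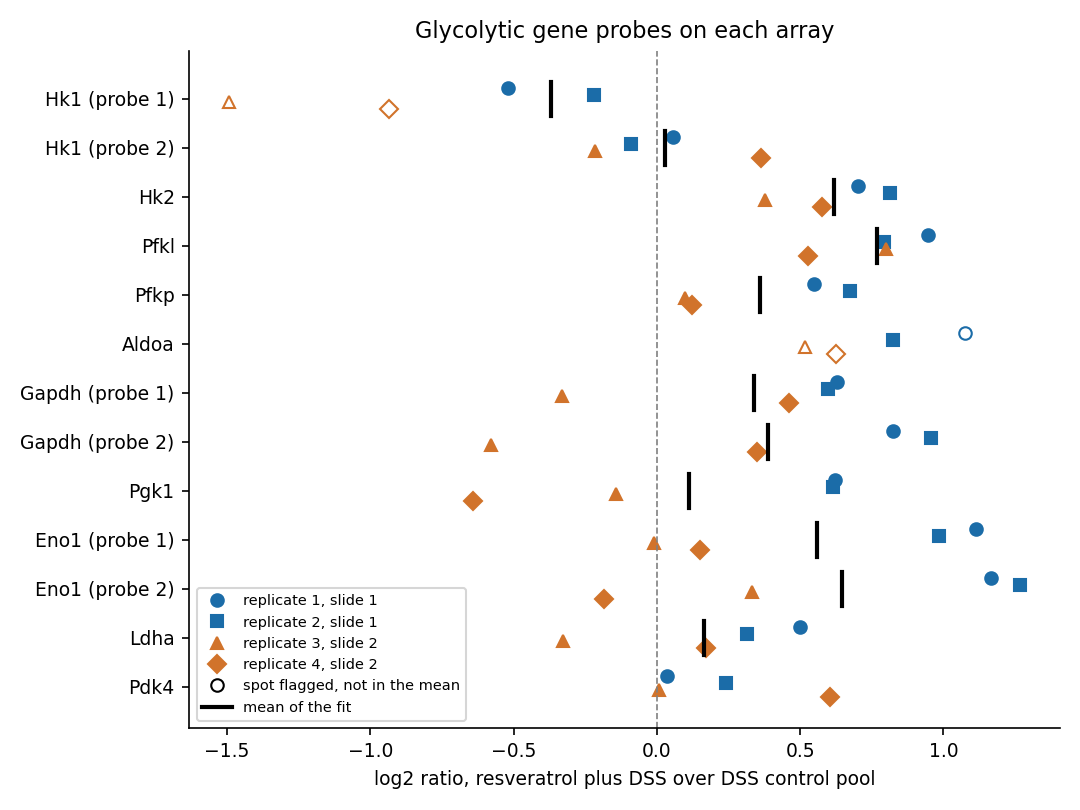
Log2 ratio of resveratrol plus DSS over the DSS control pool (horizontal axis) for each of the 13 probes (rows, in pathway order) on 4 arrays. Each point is an array, coloured by slide, open points are spots flagged as outliers that were left out of the mean, and black bars are the fitted means. All 4 points of Hk2 and of Pfkl lie to the right of 0, and the slide 1 points of Gapdh, Pgk1, Eno1 and Ldha lie to the right of their slide 2 points. Probe 1 is the brighter probe of a gene.

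Hexokinases open the pathway. For Hk2, the inducible form, the scanner's processed signals were 3172, 4061, 4588 and 4662 for resveratrol plus DSS on replicates 1 to 4, against 1890, 2261, 3282 and 3149 for the DSS control pool. After normalization the log2 ratios were 0.70, 0.81, 0.38 and 0.58. Every array was above 0, with replicate 3 the lowest. The mean was 0.62 ± 0.10 (n = 4 arrays, limma adjusted p = 0.00802), a ratio of 1.53, and it exceeded that of 90.4% of tested probes.

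Hk1, the widely expressed form, had discordant probes and no call. On the dimmer probe, the homologue of the Hk2 probe shown above, the log2 ratios were 0.06, -0.09, -0.22 and 0.36, with a mean of 0.03 ± 0.12 (n = 4, limma adjusted p = 0.85). These values scattered on both sides of 0, while the Hk2 probe on the corresponding stretch was above 0 on all arrays. The brighter Hk1 probe gave -0.52 and -0.22 on slide 1, with a mean of -0.37 ± 0.15 (n = 2, limma adjusted p = 0.108). Its spots on slide 2 were flagged as outliers by the scanner software, and on the same normalization they would have given -1.49 and -0.94. With flagged spots kept both in the normalization and in the fit, the mean was -0.28 (n = 4, limma adjusted p = 0.0626). Slide 1 alone put this probe past the threshold (adjusted p = 0.0263), whereas median centring turned its mean to 0.11.

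Phosphofructokinase forms the committed step, and Pfkl and Pfkp encode its liver and platelet subunits. Pfkl had processed signals of 1303, 1156, 1598 and 1512 for resveratrol plus DSS, against 679.1, 682.5, 791.1 and 1013 for the DSS control pool. The Pfkl signal was higher with resveratrol on each array. Its log2 ratios of 0.95, 0.79, 0.80 and 0.53 varied little between arrays. The mean was 0.77 ± 0.10 (n = 4, limma adjusted p = 0.00515), a ratio of 1.70, which 94.8% of tested probes lay below.

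Pfkp had processed signals of 914, 844.1, 736.8 and 678.4 for resveratrol plus DSS, against 603.4, 494.1, 614.3 and 597.7 for the pool. Its log2 ratios were 0.55, 0.68, 0.10 and 0.12. All were above 0, and both arrays of slide 1 were above both of slide 2. The mean of 0.36 ± 0.13 missed the threshold (n = 4, limma adjusted p = 0.0588). It passed in 9 of 21 alternative settings, among them the authors' deposited values (0.48, adjusted p = 0.0242) and the scanner's processed signals (0.45, adjusted p = 0.0376).

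Aldoa encodes aldolase A, which cleaves fructose 1,6-bisphosphate. Its probe was among the brightest of the set, with processed signals of 28400, 22480, 35510 and 24220 for resveratrol plus DSS, against 14770, 11550, 22640 and 17880 for the DSS control pool. The signal was higher with resveratrol on each array, but 3 of the 4 spots were flagged, so that replicate 2, at a log2 ratio of 0.83, was the one value left and no test was made. On the same normalization the flagged spots of replicates 1, 3 and 4 would have given 1.07, 0.52 and 0.63. With flagged spots kept both in the normalization and in the fit, the mean was 1.54 (limma adjusted p = 0.00204), in a setting under which 33.7% of all probes were higher.

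Gapdh encodes the dehydrogenase that oxidizes glyceraldehyde 3-phosphate and is often used as a reference gene. Its brighter probe had log2 ratios of 0.63, 0.60, -0.33 and 0.46. The other probe, printed 10 times on each array, had 0.82, 0.96, -0.58 and 0.35. Both probes were high on slide 1, moderately high on replicate 4 and below 0 on replicate 3. The means were 0.34 ± 0.18 (limma adjusted p = 0.147) and 0.39 ± 0.26 (limma adjusted p = 0.236), with n = 4 for each. Without replicate 3 both passed, at 0.56 (adjusted p = 0.0084) and 0.71 (adjusted p = 0.0116), so that this array decided the call.

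The second Gapdh probe was the one probe of the set to carry CACCTC or ACCTCA, letters that overlap each other by 5 bases and were searched in the probe sequence as listed, on that strand alone. These letters occurred in 718 tested probes (3.81%), of which 38.3% were higher, against 23.8% of probes without them. The other Gapdh probe carried neither and had a similar profile over the arrays. The part of these letters in the ratio was not tested.

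Pgk1 encodes phosphoglycerate kinase, the first step to yield ATP. Its log2 ratios, each the mean of up to 10 spots, were 0.62, 0.62, -0.14 and -0.64. The slide 1 arrays agreed closely, and both slide 2 arrays were below 0. The mean was 0.11 ± 0.23 (n = 4, limma adjusted p = 0.695), and it turned to -0.06 without replicate 1 and to -0.06 without replicate 2.

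Eno1 encodes alpha-enolase, which forms phosphoenolpyruvate. For the brighter probe the processed signals were 9555, 7129, 6243 and 5804 for resveratrol plus DSS, against 4955, 3669, 6684 and 5605 for the DSS control pool. The log2 ratios were 1.11, 0.99, -0.01 and 0.15, and those of the dimmer probe were 1.17, 1.27, 0.33 and -0.19. On slide 1 Eno1 was about 2-fold higher on both probes, and on slide 2 the values lay around 0. The means were 0.56 ± 0.21 (limma adjusted p = 0.0711) and 0.65 ± 0.26 (limma adjusted p = 0.0775), with n = 4 for each. The brighter probe passed without replicate 3 (0.75, adjusted p = 0.0239), and the dimmer one without replicate 4 (0.92, adjusted p = 0.0337).

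Ldha encodes the lactate dehydrogenase A subunit. Its probe, printed 10 times on each array, gave log2 ratios of 0.50, 0.31, -0.33 and 0.17, with only replicate 3 below 0. The mean was 0.17 ± 0.15 (n = 4, limma adjusted p = 0.365), and without replicate 3 it was 0.33 (adjusted p = 0.0437).

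Pdk4 encodes a kinase that inactivates the pyruvate dehydrogenase complex and is induced by fasting. Its processed signals were low, at 150.8, 124.4, 105.8 and 269.4 for resveratrol plus DSS and 163.5, 84.85, 150.4 and 113.6 for the DSS control pool. It was not well above background in Cy5 on any array, and in Cy3 on replicate 3 alone. Pdk4 therefore failed the filter on dim probes, and its log2 ratios of 0.04, 0.24, 0.01 and 0.60 carry no order between the groups.

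Most member probes had higher ratios on slide 1 than on slide 2, although no such difference passed the test given below. Of the 10 probes with 4 values, 8 had both slide 1 arrays above both slide 2 arrays, where 41.9% of all such probes did and 10.1% had the reverse order. The exceptions were the dimmer Hk1 probe and Pfkl. Gapdh and Eno1 each entered this count with both of their probes. The median over the tested probes of the set was 0.63 and 0.68 on replicates 1 and 2 and -0.08 and 0.26 on replicates 3 and 4, against medians of all tested probes between -0.06 and 0.04. Each slide held different rats, so that slide and rats cannot be told apart.

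In a limma fit of slide 1 minus slide 2, the difference was 0.98 ± 0.16 for the brighter Eno1 probe (adjusted p = 0.0975), 1.14 ± 0.22 for the dimmer one (adjusted p = 0.129) and 1.01 ± 0.21 for Pgk1 (adjusted p = 0.143). For Hk2 it was 0.28 ± 0.17 (adjusted p = 0.38) and for Pfkl 0.21 ± 0.18 (adjusted p = 0.539). No difference between slides passed the threshold for any of the 16169 probes fitted (0 called, 0%), although 3164 of them (19.6%) had an unadjusted p under 0.05, 5 of the 10 member probes among them. The plot of slide means places Hk2 and Pfkl above 0 on both slides.

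**Figure D2:**
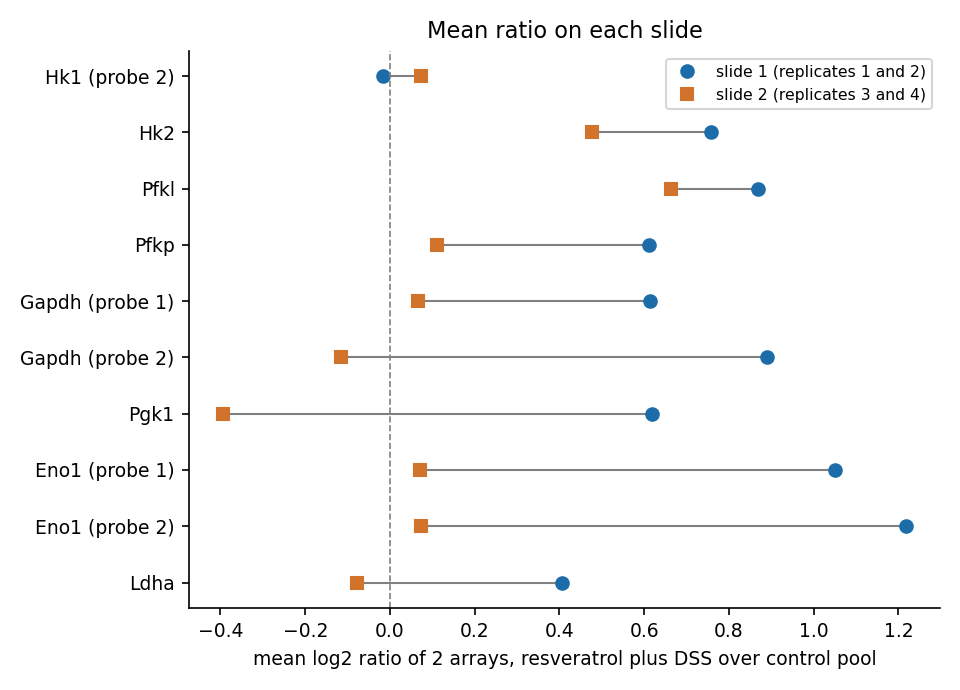
Mean log2 ratio of resveratrol plus DSS over the DSS control pool (horizontal axis) over the 2 arrays of slide 1 (circles) and of slide 2 (squares), for the 10 member probes with 4 values. Lines join the slides of a probe. Hk2 and Pfkl stay above 0 on both slides, at 0.76 and 0.48 and at 0.87 and 0.66, while Pgk1 lies at 0.62 on slide 1 and at -0.39 on slide 2.

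For the 3 members printed 10 times on an array, Gapdh, Pgk1 and Ldha, the SD over spots of an array lay between 0.06 and 0.15 on the log2 scale, and the SD over the 4 arrays lay between 0.35 and 0.69. The first covers repeat spots of one hybridisation, and the second also covers different hybridisations, slides and pairs of rats, which cannot be told apart here.

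Both channels were also scaled across arrays, by quantile normalization of the mean intensities after loess. On that scale the Cy5 signal of resveratrol plus DSS for the brighter Eno1 probe was higher on slide 1 than on slide 2 by 1.24 (log2), and the Cy3 signal of the control pool by 0.26. For Pgk1 the differences were 1.19 in Cy5 and 0.17 in Cy3, and for Ldha 0.79 and 0.30. For both Gapdh probes they were 0.93 and 1.35 in Cy5 and 0.38 and 0.34 in Cy3. On this scale the late enzymes differed more in Cy5 than in Cy3, and the median of all tested probes differed by 0.10 in Cy5. Pfkl differed by -0.10 in Cy5 and -0.30 in Cy3. The processed signals, which are not scaled between arrays, gave another split. For the brighter Gapdh probe they were 15240, 14010, 14370 and 17650 in Cy5 on replicates 1 to 4, against 9835, 8588, 17230 and 14720 in Cy3, so that there the slides differed in the control pool's channel, and those of Eno1, given above, differed in both. Which channel carried the difference therefore depends on the scaling.

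Flagged spots were more common on slide 2, where they made up 11% and 13.7% of spots, against 3.45% and 4.68% on slide 1. Among spots with a mean log2 intensity above 11 they made up 53.6% and 56.3% on slide 2 and 17.3% and 15.8% on slide 1. Over the arrays the mean log2 intensity was 12.92 and 12.85 for the Gapdh probes, 11.69 for the brighter Eno1 probe, 11.05 for Ldha, 10.8 for Pgk1 and 10.68 for the dimmer Eno1 probe, against 10.75 for Hk2 and 8.89 for Pfkl. On slide 2 no spot of the Gapdh, Pgk1, Eno1 or Ldha probes was itself flagged, while flagged spots had weight 0 in the loess curve at those intensities. The part of the curve in the difference between slides was not tested. With flagged spots kept, 8 of 9 member genes were higher, against 33.7% of all probes, and with each array centred on its median in place of loess 7 of 8 were higher, against 36.3%. Median centring also moved the median of all tested probes to 0.20. On slide 1 alone 7 of the 8 genes were higher and Hk1 was lower, against 33.3% and 25.5% of all probes. On slide 2 alone limma called 0 of the 10 member probes, against 5.16% higher and 6.92% lower of all probes, and Hk2 and Pfkl were the 2 with an unadjusted p under 0.05. The plot of ratios by setting shows that Hk2 and Pfkl passed in 20 of 21 alternatives, each missing on slide 2 alone (adjusted p = 0.0814 and 0.054). Among these alternatives, quantile normalization of intensities leaves ratios unchanged by construction.

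**Figure D3:**
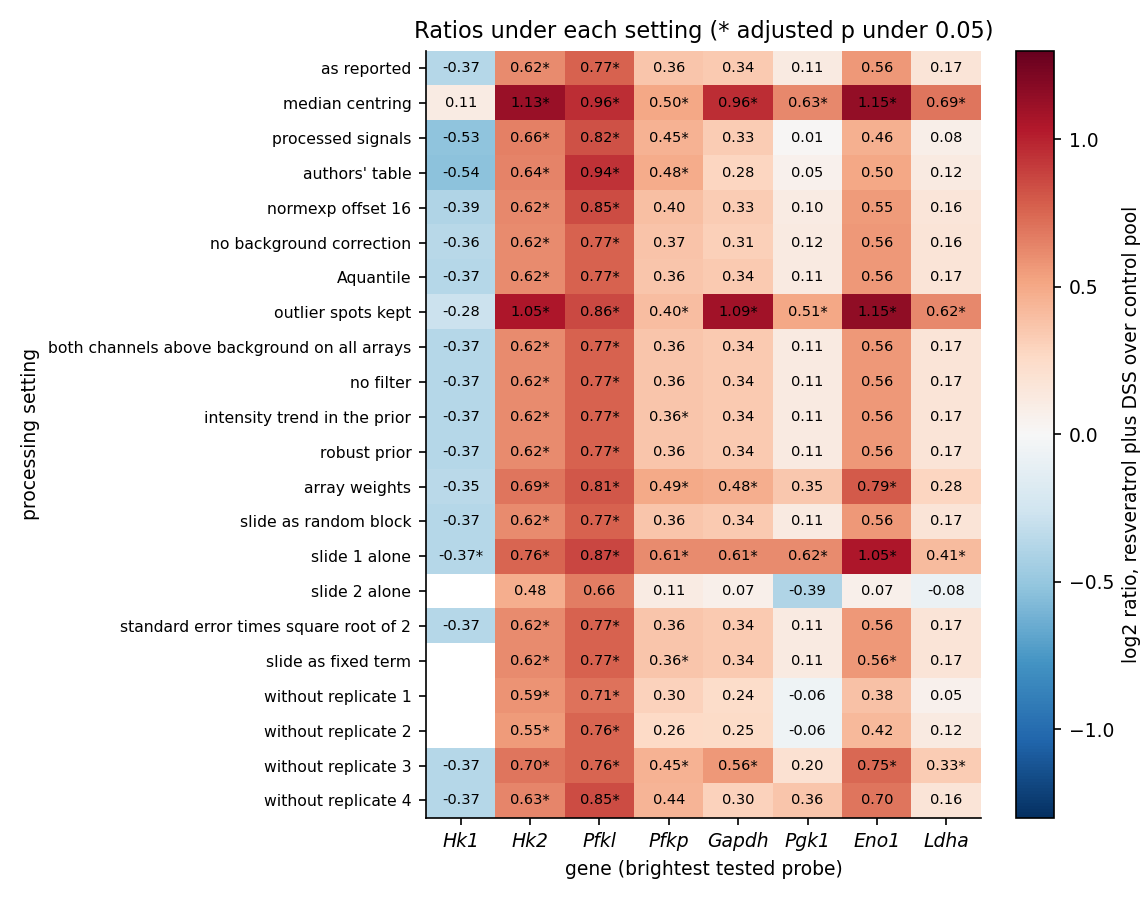
Log2 ratio of resveratrol plus DSS over the DSS control pool (colour and printed value) for the 8 tested genes (columns) under each processing setting (rows). A star marks an adjusted p under 0.05 in limma and a blank cell has no value. The Hk2 and Pfkl columns are starred in all settings but slide 2 alone, and the other columns gain stars mainly with median centring, kept outlier spots, array weights, slide 1 alone and without replicate 3.

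The array also carries 99 probes for other loci annotated as similar to Gapdh, a set assembled after the values were seen. Of these, 88 were tested, 32 were higher and 2 were lower, with a median log2 ratio of 0.35, beside 24.4% of all tested probes higher and 22.7% lower. Their medians by array were 0.61, 0.50, -0.04 and 0.31, in the order of replicates 1 to 4. Like the Gapdh probes, they were highest on slide 1 and lowest on replicate 3, and 53 of the 60 with 4 values had both slide 1 arrays above both of slide 2, beside 41.9% of all probes with 4 values. Of the 99, 7 shared a run of at least 20 bases with a Gapdh probe. Probes with shorter runs could also match closely. For example, a probe with a run of 18 bases had 88.4% identity over 43 overlapping bases. How far the probes of these loci and the Gapdh probes bind each other's transcripts was not tested. Probes for enolase-like loci, 14 of them tested, had a median of 0.12, with 4 higher, and the 6 for Ldha-like loci a median of 0.21, with 1 higher.

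**Figure D4:**
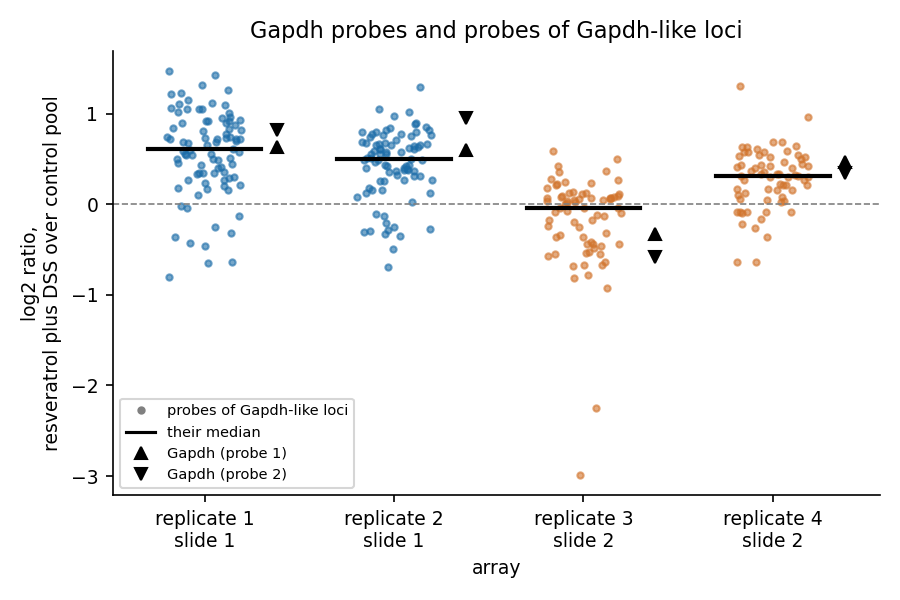
Log2 ratio of resveratrol plus DSS over the DSS control pool (vertical axis) on each array for tested probes of loci annotated as similar to Gapdh (small points, black bars are medians) and for the 2 Gapdh probes (triangles). Probes with a flagged spot on an array are left out there. The medians are 0.61 and 0.50 on slide 1 and -0.04 and 0.31 on slide 2, and the Gapdh probes are likewise lowest on replicate 3. Horizontal scatter has no meaning.

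The counts of called genes in the wider lists of glucose metabolism depended on the setting. Of their 69 tested genes 18 were higher and 12 lower, which became 36 and 3 with median centring and 15 and 8 with slide as a random block.

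Among 20 other glycolytic enzymes, 13 were tested, 4 were higher and 3 were lower. Gpi, the isomerase between the hexokinase and phosphofructokinase steps, was higher by 0.52 ± 0.12 (limma adjusted p = 0.0206), with log2 ratios of 0.82, 0.62, 0.16 and 0.49. Tpi1, which interconverts the trioses, was higher by 0.44 ± 0.10 (adjusted p = 0.0192), with 0.67, 0.52, 0.27 and 0.30. Both were above 0 on every array, as Hk2 and Pfkl were. The other higher ones were Pklr (0.43) and Bpgm (0.36), and Aldoc (-0.34) was also lower, all named after their values were seen. Pklr, at 0.49, 0.37, 0.29 and 0.58, and Bpgm, at 0.28, 0.32, 0.74 and 0.12, were above 0 on every array too. Gapdhs, known as the sperm form of the dehydrogenase, was lower, at -0.48 ± 0.12 (adjusted p = 0.0215). Pkm, like Pklr a form of the final enzyme of the pathway, had 1.21 and 1.24 on slide 1 and -0.26 on replicate 4. Replicate 3 of Pkm was flagged, and the mean was 0.73 ± 0.32 (n = 3, limma adjusted p = 0.113). Pgam1 was at 0.19 ± 0.13 (adjusted p = 0.238), with a second probe at -0.34 (n = 2, limma adjusted p = 0.323), and Ldhb was too dim to test. Tpi1 was not called on the scanner's processed signals (0.25, adjusted p = 0.125) or without replicate 1 or 2, and Gpi was not called without replicate 1, 2 or 4 (adjusted p up to 0.0781). Gapdhs lost its call without replicate 1 or 4 and with median centring (-0.38, adjusted p = 0.0605), and was at -0.89 on processed signals.

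Transporters of glucose and lactate went in different directions, with 2 of 6 tested genes higher and 1 lower. Slc16a1, the monocarboxylate carrier MCT1 that takes up butyrate and lactate, was higher by 1.05 ± 0.10 (limma adjusted p = 0.00409), with log2 ratios of 0.99, 1.08, 0.85 and 1.27. Its accessory protein Bsg was higher by 0.42 ± 0.11 (adjusted p = 0.0298), a call lost on the scanner's processed signals (0.25, adjusted p = 0.15) and without replicate 1, 2 or 4. Slc2a3, the glucose transporter GLUT3 found in leukocytes and neurons, was lower on all arrays, with -1.07, -1.14, -1.01 and -1.15 and a mean of -1.09 ± 0.08 (adjusted p = 0.00388). It was well above background in Cy5 on 2 of the 4 arrays and in Cy3 on all, and its size depended on the signals used, at -1.78 on processed signals and -1.66 in the authors' deposited values. Slc2a1, the widespread GLUT1, was at 0.09 ± 0.17 (adjusted p = 0.651), and Slc16a3, a lactate exporter, at -0.41 ± 0.23 (n = 3, adjusted p = 0.181).

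Of 10 tested regulators of flux, 3 were higher and 2 lower. Pfkfb3, which makes the phosphofructokinase activator fructose 2,6-bisphosphate, was lower, at -0.51 ± 0.10 (limma adjusted p = 0.0128), with -0.31, -0.41, -0.73 and -0.60 on the 4 arrays. It was -0.24 with median centring (adjusted p = 0.257). Fbp1, a fructose bisphosphatase, was lower too (-0.48, adjusted p = 0.0193; named after its value was seen), whereas Fbp2 was higher (0.52, adjusted p = 0.0243). Among the kinases related to Pdk4, Pdk3 was higher by 0.53 ± 0.11 (adjusted p = 0.0142), although its probe was well above background on 3 arrays in Cy5 and on 2 in Cy3. It was at 1.33 on processed signals and 1.20 in the authors' deposited values, and was not called without replicate 2 (adjusted p = 0.0644). Fbp2 was not called without replicate 1 or 2 (adjusted p up to 0.0914). Pdk1 (-0.19, adjusted p = 0.129) and Pdk2 (-0.08, n = 2, adjusted p = 0.626) did not pass the test. The kinases' target complex had 2 of 4 tested subunits higher, Dlat (0.60, adjusted p = 0.00593, with a second probe at -0.09) and Pdhb (0.40, adjusted p = 0.0363), and Pdha1 was at -0.13 (adjusted p = 0.565). Pdhb was not called with slide as a random block (adjusted p = 0.0552), with array weights, on either slide alone or without replicate 1, 3 or 4, and was at 0.91 on processed signals. Pck2, which makes phosphoenolpyruvate in mitochondria, had probes called in opposite directions (0.62 and -0.59).

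The side branches of the pathway had 3 of 13 tested genes higher and 0 lower: Pygb, a glycogen phosphorylase (0.75, limma adjusted p = 0.00496), Rpia of the pentose phosphate pathway (0.70, adjusted p = 0.0059) and Pgm1, which links glycogen to glycolysis (0.41, adjusted p = 0.0233). Pgm1 was not called without replicate 1, 2 or 4 (adjusted p up to 0.107). Of 14 tested genes of the hypoxia response, which includes many glycolytic genes among its targets, 1 was higher and 4 were lower. Egln3 (0.36), an oxygen-sensing hydroxylase named after its value was seen, was the higher one, and Bnip3l (-0.57, n = 2), Hmox1 (-0.49, n = 2), Adm (-0.44) and Hif1a were the lower ones. Hif1a, which encodes the oxygen-regulated subunit of the factor, had probes called in opposite directions, at -0.61 (adjusted p = 0.0354) and 0.32 (adjusted p = 0.0442). Ndrg1, a hypoxia-induced gene named after its values were seen, was not called by its brighter probe (0.53, n = 3, adjusted p = 0.133) and was higher by its second (1.21, adjusted p = 0.0059). With median centring none of the 4 lower genes was called, at -0.14 for Hif1a, -0.10 for Bnip3l, -0.034 for Hmox1 and -0.16 for Adm. With slide as a random block limma did not call Hif1a (adjusted p = 0.0566), Bnip3l (0.0552) or Hmox1 (0.0657), and neither Hif1a nor Adm was called without replicate 1 or without replicate 4. Of 9 tested fasting and PPAR target genes of the kind that include Pdk4, 3 were higher and 2 were lower. The higher ones were Cpt1a (0.88, adjusted p = 0.00451), which admits fatty acids to mitochondria, the receptor gene Ppard (0.61) and, named after its value was seen, Acadm (0.39). Angptl4 (-0.72, adjusted p = 0.0211) and Foxo1 (-0.94, n = 2) were the lower ones. Angptl4 was not called without replicate 4 (adjusted p = 0.0625), nor Foxo1 without replicate 1 (adjusted p = 0.0637). All of these shares stand beside the 25.7% of all genes that were higher and the 19.6% that were lower.

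**Figure D5:**
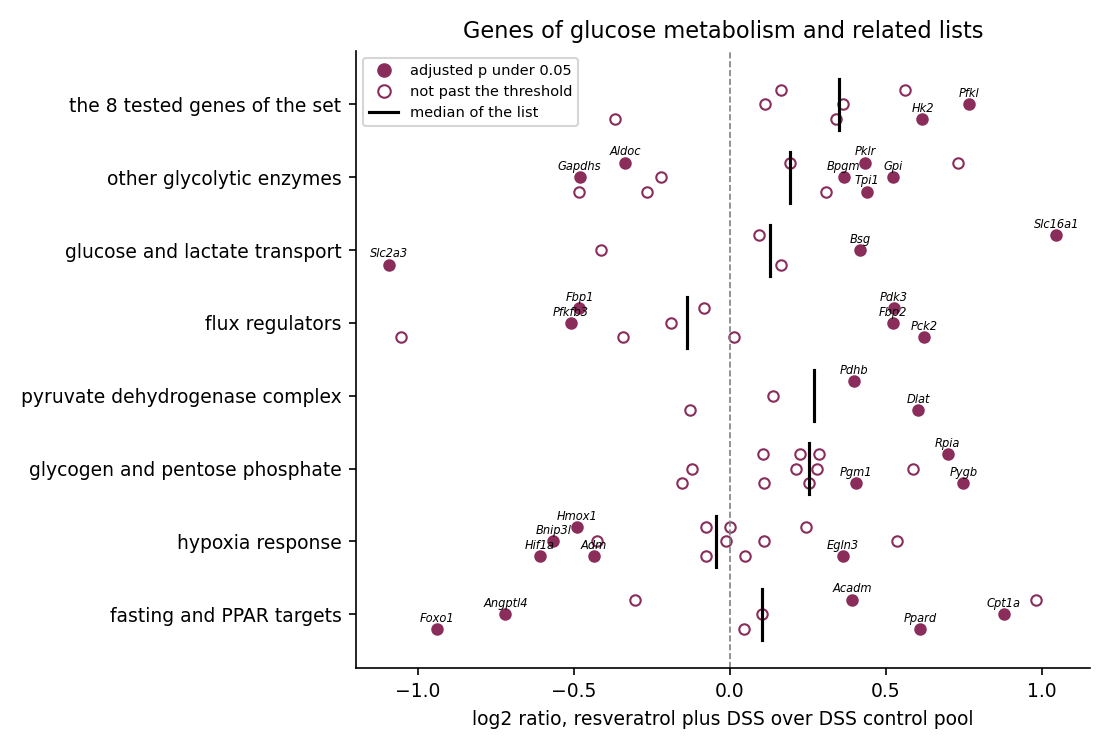
Log2 ratio of resveratrol plus DSS over the DSS control pool (horizontal axis) for the tested genes of 8 lists (rows), each gene by its brightest tested probe. One gene of the other glycolytic enzymes is not drawn. Filled, named points passed the threshold, open points did not, and black bars are the list medians. The median of the 8 tested genes of the set was 0.35, and the most extreme named transporters were Slc16a1 at 1.05 and Slc2a3 at -1.09. Vertical scatter within a row has no meaning.

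Markers of the cells in the mucosa moved as well. Of 12 tested markers of the colonic epithelium, 6 were higher and 0 lower, with a median log2 ratio of 0.84, which was 1.04 on slide 1 and 0.54 on slide 2. All 5 tested neutrophil markers and all 5 tested macrophage markers were lower, with medians of -0.55 and -0.89, and 5 of 6 fibroblast markers were lower, with a median of -1.18. Smooth muscle markers had a median of -0.37 on slide 1 and -2.05 on slide 2, with 1 of 5 lower over both slides. Lower too were 2 of 3 T cell, 2 of 2 endothelial and 3 of 3 enteric neuron and glia markers. Erythrocyte markers were split, with 1 of 3 higher (Slc4a1, at 1.23 by its brighter probe) and 2 lower. The second Slc4a1 probe was not called (-0.18, limma adjusted p = 0.535). Markers of skeletal or cardiac muscle were split too, with 1 of 4 higher and 2 lower. Over all genes 25.7% were higher and 19.6% lower. The neutrophil markers Cxcr2, Mmp8 and Ngp were not well above background on any array, and S100a8, the neutrophil calcium-binding protein, was lower by 3.17 (adjusted p = 0.00388). In whole mucosa, fewer cells of a type and less RNA per cell cannot be told apart. The part of cell composition in the glycolytic ratios, on either slide, was not tested.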

How the data were processed

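Spot intensity values were read from the deposited scanner files, and the file headers name Agilent Feature Extraction 9.5.3.1 as their source and rn3 as the build of probe positions. Per the file headers, processed intensity values were already background-subtracted, detrended and dye-normalized. The deposited log10 ratios of the spots were not used. The authors' value table holds log2 ratios with Cy5 on top, whose r with the scanner's ratios was 0.981 to 0.992. Its column medians were -0.013, -0.013, 0.091 and -0.025, with no statement of the centring. The submitters' processing notes list Agilent Feature Extraction and limma.

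Mean signals were background-corrected (normexp, offset 50) and loess-normalized within arrays using limma 3.58.1 (R 4.3.3), with control spots and flagged spots at weight 0. Spots of a probe were averaged. A probe was tested against 0 with lmFit and eBayes if 1 channel or both exceeded background clearly on 3 or more arrays and 2 or more values were left. The threshold was an adjusted p of 0.05, and the control pool counted as 1 sample. The share of probes well above background lay between 44.1% and 49.2% in Cy5 and reached 42.8% to 57.1% in Cy3. Having 4 arrays limits the precision. Correlations (r) between arrays were 0.886 within slide 1, 0.722 within slide 2 and 0.701 to 0.748 between slides. Every array had a control pool on Cy3, and the part of this design in the correlations was not tested.

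Names came through a RefSeq gene table (assembly GRCr8, names only): 10735 probes matched by accession, 126 by another accession, 5542 by symbol and 3704 by synonym, while 20905 had no name. Genes were read through their brightest tested probe. Named were all members with every probe, up to 4 called genes of each list with the largest ratios, and 14 related genes whatever their value. One gene that this rule takes is not reported here. Members, lists and tests were chosen with earlier results of these data known. Alternatives covered signals, normalization, background, flags, filter, prior, weights, slide, error and single arrays. Replicates 1 to 4 are named in accession order.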

Additional observations from a re-analysis of the deposited data

How the results depend on the processing

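Of the 21 alternative settings, Hk2 and Pfkl kept their direction in all and missed the threshold on slide 2 alone, with ranges of the log2 ratio of 0.48 to 1.13 and 0.66 to 0.96. The count of member genes called, 2 as reported, was 7 with median centring, 8 with flagged spots kept, 5 with array weights, 8 on slide 1 alone, 0 on slide 2 alone (limma, with 2 probes at an unadjusted p under 0.05) and 4 with slide as a fixed term, a setting chosen after seeing the data. Leaving out each array in turn gave 2 to 6, the most without replicate 3. The 30 called genes of the wider lists became 19 with both channels above background on all arrays, 9 on slide 2 alone, 23 with slide as a random block (15 higher and 8 lower), 7 with the standard error multiplied by the square root of 2, and 12 to 31 with an array left out. The 8886 probes called in all became 4551 with both channels above background on all arrays, 1749 on slide 2 alone, 2180 with the wider standard error and 3410 to 8964 with an array left out. Median centring called 6852 probes higher and 1839 lower, against 4597 and 4289 as reported, and in the wider lists 36 genes higher and 3 lower, against 18 and 12. Directions that turned did so for ratios that were not called: Hk1 (0.11 with median centring for the brighter probe, and for the other -0.017 on slide 1 alone and -0.083 to 0.109 with an array left out, below 0 without replicate 4), the second Gapdh probe (-0.12 on slide 2 alone), Pgk1 (-0.39 on slide 2 alone, and -0.057 to 0.365 with an array left out, below 0 without replicate 1 and without replicate 2), Ldha (-0.077 on slide 2 alone), Slc2a1 (-0.25 on slide 2 alone and -0.052 to 0.252 with an array left out, below 0 without replicate 2), Slc16a3 (0.059) and Pdk2 (0.27) with median centring, and Pdha1 (0.39 with median centring, 0.31 with flagged spots kept, 0.048 with array weights, 0.18 on slide 1 alone and -0.33 to 0.044 with an array left out, above 0 without replicate 3). The causes were not tested. Quantile normalization of intensities leaves ratios unchanged by construction. No paired analysis was possible because the arrays form a single group and their numbers follow accession order. Flagged spots limit Aldoa and the brighter Hk1 probe, and dim signal limits Pdk4. With the pool counted as 1 sample, the ratios leave out the spread between control rats. A dye effect cannot be told apart from the treatment, as no dye was swapped.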
